A study of Homo sapiens with 24 samples.

Results

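The mitochondrial ribosomal protein genes are the nuclear genes for the proteins of the ribosome inside mitochondria. They were taken as the protein_coding rows of the deposited count table whose symbol begins with MRPL or MRPS followed by a number, which gave 77 of 48162 rows. The 77 rows carry 76 symbols, because MRPS17 has 2 rows. RNA-seq was made of PPC1, a line of human prostate cancer cells grown in RPMI medium, in 4 conditions with 6 libraries each. UT were parental cells that received neither radiation nor drug, and UT_LCL were parental cells that had 5 h of LCL521 at 5 μM. PGCC, polyploid giant cancer cells, came from plates given 8 Gy on day 2 and were enriched by size on a 20 micron strainer, and PGCC_LCL were such cells exposed to LCL521 in the same way. LCL521 is a pro-drug that inhibits acid ceramidase, the lysosomal enzyme that splits ceramide. All cells were harvested by trypsinization on day 5, so the libraries labelled PGCC differ from UT by radiation and by the size selection together, and those cannot be told apart. In bulk RNA a smaller share of cells that express a gene and a smaller part of it in the RNA of each cell cannot be told apart either. Levels here are relative to the library, so they do not give the amount of RNA per cell.

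The mitochondrial ribosome, or mitoribosome, makes only the few proteins that mitochondrial DNA encodes, all of them membrane subunits of the respiratory chain and of ATP synthase. Its rRNA comes from mitochondrial DNA, while every one of its proteins is made in the cytosol and imported. Part of the proteins descend from the bacterial ancestor of mitochondria and part were added later. MRPL names mark the large subunit, which forms peptide bonds, and MRPS names the small subunit, which reads the mRNA, although MRPS18A and MRPS30 sit in the large subunit and MRPS36 is no longer counted as a ribosomal protein but as a part of the 2-oxoglutarate dehydrogenase complex.

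The files hold counts of reads per gene, between 14835246 and 19906601 per library. Levels are given in CPM, read counts relative to library sizes scaled by TMM factors. The members held between 0.46% and 0.63% of all counted reads. A floor of 3 counts lay between 0.151 and 0.202 CPM. Among the prostate markers, KLK2, KLK3 and FOLH1 were at 0 CPM on average in UT and PGCC, TMPRSS2 and ACPP were at no more than 0.452 CPM, and HOXB13 was at 745 CPM in UT and 427 CPM in PGCC. Replicates 4 and 5 stood apart from the other 4 of their condition: among the 74 members tested, 33 had both of these libraries below the others in UT, and 9 had both above (44.6% and 12.2%, beside 26.4% and 25.7% of all genes tested). In PGCC the same counts were 7 and 19 (9.46% and 25.7%, beside 18.9% and 22.2%). Values with and without these replicates, or for each set, are therefore given for the medians, the summed levels and part of the members that differ.

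Several promoters are printed first, for the members whose changes between PGCC and UT are described most closely: the largest falls MRPL1 and MRPL48, the paralogs MRPS18A, MRPS18B and MRPS18C, of which only the first was called lower, and the 2 largest rises MRPS6 and MRPL33. Each is the 250 bases before the start of transcription given by RefSeq on GRCh38.p14, 5′ to 3′ on the strand of the gene. Capitals mark the motifs searched, on both strands: GCGCA and GCGC with any 1 base between them, the core of sites of NRF1, a regulator of nuclear genes for mitochondrial proteins; CCGGAAG, the core of sites of ETS factors such as GABPA; and AAGATGGC, the core of sites of YY1. The letters of these motifs do not overlap one another.
MRPL1, chr4:77862580-77862829, plus strand: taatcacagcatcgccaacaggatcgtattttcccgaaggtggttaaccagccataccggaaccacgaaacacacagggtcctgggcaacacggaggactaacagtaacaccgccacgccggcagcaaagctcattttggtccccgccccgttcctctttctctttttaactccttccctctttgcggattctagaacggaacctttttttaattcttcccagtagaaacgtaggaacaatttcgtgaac
MRPL48, chr11:73787624-73787873, plus strand: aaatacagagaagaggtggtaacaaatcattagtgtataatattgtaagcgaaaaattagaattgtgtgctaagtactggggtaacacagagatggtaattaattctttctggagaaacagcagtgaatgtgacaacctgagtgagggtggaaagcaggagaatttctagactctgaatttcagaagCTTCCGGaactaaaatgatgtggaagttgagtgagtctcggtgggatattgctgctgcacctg
MRPS18A, chr6:43687792-43688041, minus strand: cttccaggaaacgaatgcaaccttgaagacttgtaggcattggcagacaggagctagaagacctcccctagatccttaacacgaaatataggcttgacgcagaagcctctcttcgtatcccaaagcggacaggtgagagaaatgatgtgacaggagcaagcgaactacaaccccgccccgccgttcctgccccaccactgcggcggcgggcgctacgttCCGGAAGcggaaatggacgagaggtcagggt
MRPS18B, chr6:30617590-30617839, plus strand: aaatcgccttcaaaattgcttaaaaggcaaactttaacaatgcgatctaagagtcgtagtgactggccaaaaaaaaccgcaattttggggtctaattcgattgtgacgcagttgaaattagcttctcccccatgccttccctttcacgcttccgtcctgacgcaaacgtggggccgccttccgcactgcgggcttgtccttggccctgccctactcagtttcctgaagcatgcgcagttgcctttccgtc
MRPS18C, chr4:83455808-83456057, plus strand: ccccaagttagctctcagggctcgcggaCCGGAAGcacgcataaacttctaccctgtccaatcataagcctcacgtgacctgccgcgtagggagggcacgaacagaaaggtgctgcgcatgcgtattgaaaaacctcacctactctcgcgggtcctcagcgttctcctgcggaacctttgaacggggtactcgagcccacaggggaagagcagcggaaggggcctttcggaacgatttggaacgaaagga
MRPS6, chr21:34073328-34073577, plus strand: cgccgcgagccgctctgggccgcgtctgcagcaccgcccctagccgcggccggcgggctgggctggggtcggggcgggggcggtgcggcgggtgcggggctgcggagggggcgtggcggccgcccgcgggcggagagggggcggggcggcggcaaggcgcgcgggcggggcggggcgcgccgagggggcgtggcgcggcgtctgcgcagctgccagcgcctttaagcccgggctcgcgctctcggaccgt
MRPL33, chr2:27771469-27771718, plus strand: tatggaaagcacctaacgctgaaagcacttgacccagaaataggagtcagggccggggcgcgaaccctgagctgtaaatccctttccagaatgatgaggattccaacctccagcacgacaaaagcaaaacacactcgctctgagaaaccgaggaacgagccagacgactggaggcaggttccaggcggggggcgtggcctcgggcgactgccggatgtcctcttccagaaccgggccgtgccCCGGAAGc
RefSeq windows of 300 bases, 250 before and 50 after the start, were found for 67 of the 76 symbols, 83 windows in all. The ETS letters were in 38.6% of the member windows in 12.8% of the 22199 windows of protein_coding genes and in 10.3% of all 35116 windows. For the YY1 letters these shares were 27.7%, 3.53% and 2.89%, and for the NRF1 letters 10.8%, 7.39% and 5.78%. Members called lower in PGCC and members not called carried them at like shares: 41.5% of 41 and 36.1% of 36 windows held the ETS letters, 24.4% and 30.6% the YY1 letters, and 9.76% and 11.1% the NRF1 letters. Within the printed stretches the ETS letters stood in MRPL48, MRPS18A, MRPS18C and MRPL33, so they were found in members that fell, rose and were not called. MRPL1 and MRPS6 showed none of the 3, and MRPS18A and MRPS18B hold the YY1 letters after the start, outside the stretch printed. A match of letters is not a bound site.

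Per kilobase of gene length the 74 members that passed the filter on low counts ranged from 0.249 to 167 CPM per kb, with a median of 33.2, as means over the 24 libraries. MRPS34, a protein specific to mitochondria in the small subunit, was highest at 167 CPM per kb. It was followed by MRPS23 at 147, MRPS16 at 129, MRPL24, which lines the exit of the peptide tunnel, at 128, and MRPL14 at 122 CPM per kb. At the other end, 3 members were removed by the filter: the second MRPS17 row (ENSG00000249773) with 3 counts over all 24 libraries, MRPL30 with 9 and MRPS24 with 63. Each of these 3 spans bases that another protein_coding row covers on the same strand, as do MRPL12, MRPL38 and MRPL53, whose mean counts were 64.3, 31.9 and 34.1 per library. Such overlap is not limited to low rows: MRPS16, at a mean of 5840 counts, MRPS5, MRPS17, MRPS28, MRPL33 and MRPS6 have it too. MRPL46, the lowest tested member at 0.249 CPM per kb, overlaps no coding row on its strand. How reads from shared bases were counted is not given in the sources used here, so the levels of rows with shared bases are uncertain. In all, 46 of the 77 members overlap another row of the table and 31 overlap none.

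PGCC against UT asks how giant cells differ from the cells they came from. Most members were lower in PGCC: of the 74 tested, 38 were called lower and 3 higher at an adjusted p under 0.05 in edgeR's quasi-likelihood test. Among all 13812 genes tested, 24.3% were called lower and 23.1% higher, 47.4% in all. Of the members, 51.4% were lower and 4.05% higher. Their median log2 fold change was −0.29, beside −0.028 over all genes tested, and 61 of 74 were below 0. For 22 members (29.7%) every PGCC library lay below every UT library, and for 2 every one lay above. Among all genes tested 12.9% were wholly lower and 13.9% wholly higher, so separate groups were common. With the replicate number as a block, 44 members were lower and 4 higher, beside 28.3% and 27.9% of all genes, 56.2% in all. When library totals replaced the TMM factors, 29 were lower and 4 higher, while all genes tested moved to 18.3% lower and 27.7% higher; the median of the members then lay 0.26 below that of all genes, as it did with TMM.

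Summed over the 77 members, the level was 5399 to 6428 CPM in UT with a median of 6082, and 4607 to 5148 CPM in PGCC with a median of 4975. No PGCC library reached the lowest UT library. The ratio of the means was 0.819, and the ratio within replicate numbers was 0.821 ± 0.0558 (SD, n = 6), below 1 in 6 of 6. It was 0.795 on average in replicates 1, 2, 3 and 6 and 0.873 in replicates 4 and 5. By library totals the ratio was 0.878, again with no overlap. Without the 5 members of the highest mean CPM it was 0.843, and the groups then overlapped.

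**Figure D1:**
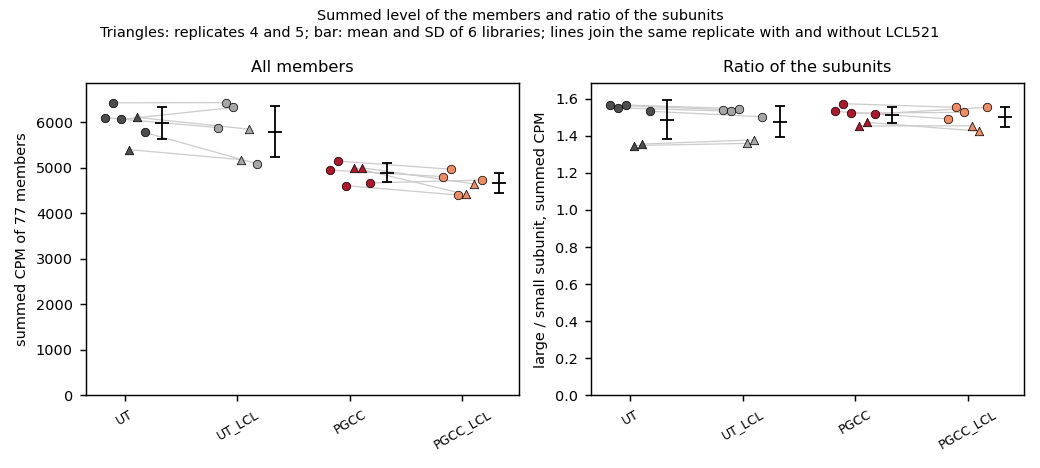
Left, CPM summed over the 77 members in each library (points) of the 4 conditions; right, the ratio of the summed CPM of the large to that of the small subunit. Bars are means and SD of 6 libraries, and lines join the same replicate number with and without LCL521; all PGCC and PGCC_LCL libraries lie below all UT libraries on the left, and on the right replicates 4 and 5 (triangles) of UT and UT_LCL lie at 1.35 to 1.38.

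The large subunit had 26 members lower and 2 higher of 48 tested, with a median log2 fold change of −0.31, and the small subunit 12 lower and 1 higher of 25, with a median of −0.25. The ratio of their summed CPM was 1.49 ± 0.105 in UT and 1.51 ± 0.0432 in PGCC (SD, n = 6 each), a difference smaller than the spread. The summed level of PGCC over UT was 0.824 for the large subunit, with overlapping groups, and 0.810 for the small, without overlap. Within replicate numbers it averaged 0.791 and 0.800 in replicates 1, 2, 3 and 6, and 0.901 and 0.833 in replicates 4 and 5. No test compared the subunits. In UT replicates 4 and 5 stood at 1.35, while the other 4 were between 1.53 and 1.57. Members with bacterial homologs had 23 lower and 2 higher of 44, and those specific to mitochondria 15 lower and 1 higher of 29. Across the 74 members, the log2 fold change had a Spearman correlation of 0.12 with gene length and of −0.05 with the level per kb; the points share their libraries, and these are descriptions.

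MRPL1, the member of the mobile L1 stalk (hg19, chromosome 4, 78783674 to 78873944, ENSG00000169288), had the largest fall. In UT its levels ran from 22.6 to 39.5 CPM with a median of 32.9, and in PGCC from 12.6 to 22.8 CPM with a median of 19.3. The groups overlapped at their ends, with replicates 4 and 5 the lowest libraries in both, yet PGCC was lower within each of the 6 replicate numbers. Its log2 fold change was −0.81 ± 0.18 (SE; adjusted p = 0.0019 in edgeR's quasi-likelihood test), and with the replicate block edgeR gave an adjusted p of 3.5e-05. MRPL1, MRPL48, MRPL3 and MRPS22 each overlap at least 1 other row, none of them a coding row on the same strand.

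MRPL48, a protein of the central protuberance at the top of the large subunit (chromosome 11, 73498361 to 73576178, ENSG00000175581), lay between 28.4 and 36.2 CPM in UT, median 32.0, and between 17.2 and 20.2 CPM in PGCC, median 18.1. No library of either group entered the range of the other. The log2 fold change was −0.78 ± 0.087 (SE; adjusted p = 6.8e-06, edgeR).

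Among the MRPS18 paralogs, 3 proteins related to bacterial S18, of which MRPS18C is counted here as the bacterial homolog, a called fall was seen in MRPS18A (chromosome 6, 43639040 to 43655528, ENSG00000096080), the paralog of the large subunit. It went from 24.8 to 29.0 CPM in UT, median 27.1, to 15.2 to 17.6 CPM in PGCC, median 17.0. The groups did not overlap, and the log2 fold change was −0.68 ± 0.082 (SE; adjusted p = 1.5e-05, edgeR). MRPS18B and MRPS18C, the small subunit paralogs, were not called, with log2 fold changes of −0.13 (95% interval −0.39 to 0.14) and −0.21 (−0.58 to 0.15). MRPS18B lay between 87.8 and 147 CPM in UT and between 90.1 and 119 CPM in PGCC, and MRPS18C between 5.77 and 11.7 and between 5.86 and 8.35 CPM, so both overlapped throughout. Whether the paralogs differed from each other was not tested. MRPS18B shares bases with PPP1R10 on the opposite strand, and MRPS18A and MRPS18C also overlap an opposite-strand gene.

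MRPS30, also a large subunit protein despite its name (chromosome 5, 44809027 to 44820530, ENSG00000112996), overlaps no other row. Its UT libraries spanned 145 to 184 CPM, median 175, and its PGCC libraries 105 to 116 CPM, median 113. The ranges were separate, and the log2 fold change was −0.62, with paired differences averaging −0.63 over replicates 4 and 5 and −0.62 over the other 4 (SE of the fit 0.069; adjusted p = 6.9e-06, edgeR).

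MRPS22, a small subunit protein specific to mitochondria (chromosome 3, 138724648 to 139076065, ENSG00000175110), ran from 41.7 to 60.6 CPM in UT, median 56.2, and from 31.2 to 38.2 CPM in PGCC, median 33.5. All UT libraries were above all PGCC libraries, and the log2 fold change was −0.66 ± 0.099 (SE; adjusted p = 8.9e-05, edgeR). The remaining large falls showed the same separation of the groups. MRPL54 fell by 0.76, MRPS26 by 0.70, MRPL23 by 0.60 and MRPS9, a protein of the head of the small subunit, by 0.59 on the log2 scale. MRPS26 was the least even over replicates, with paired differences of −0.91 on average in replicates 1, 2, 3 and 6 and −0.29 in 4 and 5.

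**Figure D2:**
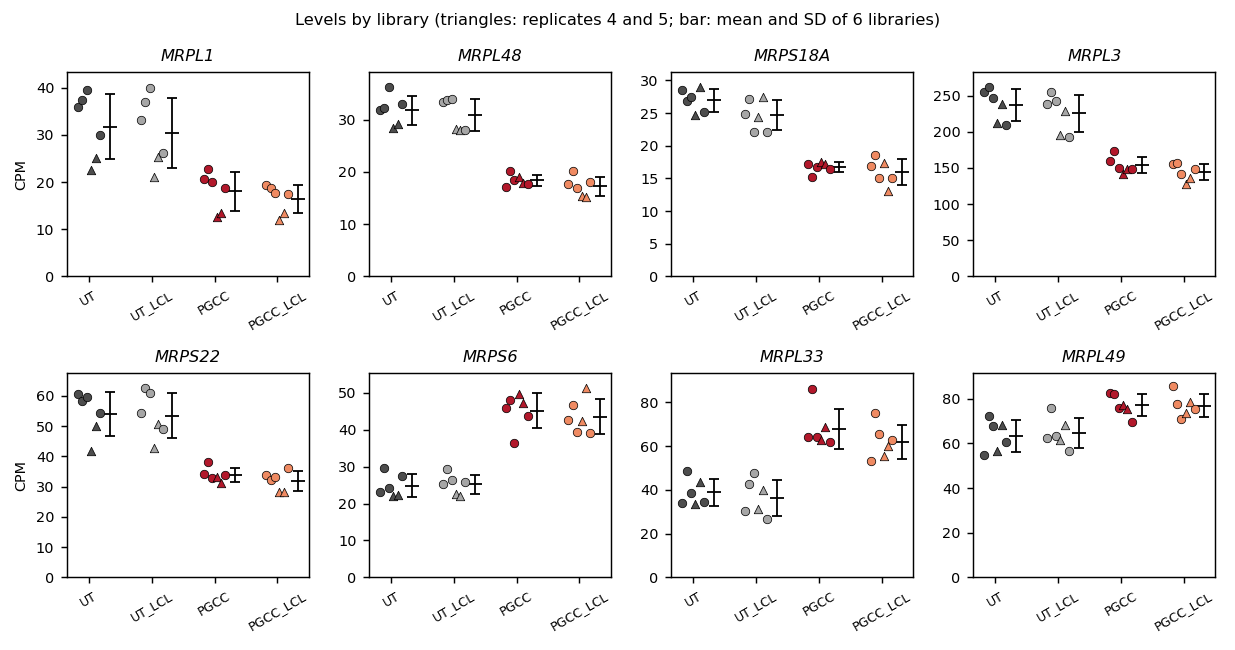
Level in CPM of 8 members in each of the 24 libraries, with bars for the mean and SD of 6 libraries and triangles for replicates 4 and 5. The 5 members that fell (MRPL1, MRPL48, MRPS18A, MRPL3 and MRPS22) are lower in PGCC and PGCC_LCL, and MRPS6, MRPL33 and MRPL49 are higher, with overlap between UT and PGCC in MRPL1 and MRPL49.

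The 4 members counted here as around the peptidyl transferase centre, where peptide bonds form, were all called lower. Each member was put at no more than a single site, so a protein that borders another site is not counted there. MRPL3 (chromosome 3, 131181056 to 131221827, ENSG00000114686) fell most, from 209 to 262 CPM in UT, median 242, to 141 to 173 CPM in PGCC, median 150. Its groups did not overlap, and the log2 fold change was −0.62 ± 0.078 (SE; adjusted p = 2.1e-05, edgeR). MRPL2 fell least of the 4, by 0.33, with overlapping groups; by library totals its adjusted p in edgeR was 0.096, without replicate 2 it was 0.083 and without replicate 6 it was 0.054. The groups of MRPL16 and MRPL4 overlapped too. Their paired differences averaged −0.54 and −0.51 in replicates 1, 2, 3 and 6, and −0.079 and −0.041 in replicates 4 and 5. Of the 4 members counted here at the peptide exit tunnel, 3 were lower, from MRPL23 at −0.60 to MRPL22 at −0.23, which was not called. MRPL22 was called without replicates 4 and 5, at −0.38 (adjusted p = 0.0093, edgeR), and without replicate 4, at −0.33 (adjusted p = 0.022, edgeR).

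The stalk that recruits translation factors had 2 of 3 members lower. MRPL10, which anchors it, fell by 0.31, although that call was lost in 9 of the alternatives, among them the fit by library totals (adjusted p = 0.14, edgeR) and those without replicate 1, 2, 4, 5 or 6 (0.062 to 0.085). MRPL12, its flexible part, lay between 2.97 and 7.30 CPM in UT and between 2.72 and 3.93 CPM in PGCC, at a log2 fold change of −0.54 ± 0.22 (SE; adjusted p = 0.051, edgeR). With the replicate block that p was 0.036 in edgeR, and without replicate 4 or replicate 5 it was 0.038 and 0.036. In replicates 4 and 5 alone MRPL12 stood at 0.055, and SLC25A10 covers its bases on the same strand.

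The central protuberance had 2 of 6 members lower, MRPL48 and MRPL27, and the head of the small subunit 2 of 4, MRPS9 and MRPS7. Counts at single sites stand beside 51.4% of all members tested and 24.3% of all genes tested that were lower. The 6 include MRPL38 and MRPL46, which averaged only 1.86 and 1.38 CPM. The falls of MRPL27 and MRPS7 were in replicates 1, 2, 3 and 6, with mean paired differences of −0.57 and −0.39, while in replicates 4 and 5 these were 0.050 and 0.035. Their other ends were MRPL46 at 0.072 and MRPS14 at 0.082, neither called. MRPS12, the protein next to the decoding centre, showed a split between replicates. Its UT libraries were 90.7, 90.9, 94.2 and 94.97 CPM in replicates 2, 3, 6 and 1 and 59.0 and 59.5 CPM in 4 and 5. Its PGCC libraries lay between them, at 63.8 to 76.0 CPM. MRPS12 was not called over all libraries, at −0.18 (95% interval −0.46 to 0.09). Without replicates 4 and 5 it was called lower, at −0.36 (adjusted p = 0.0013, edgeR), and in replicates 4 and 5 alone it stood at 0.28. Whether its change differed between these replicates was not tested.

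Of the 5 members with the highest level per kb, 4 fell. MRPS16 went from a median of 385 to 290 CPM, MRPS34 from 220 to 144 CPM, MRPS23 from 160 to 117 CPM and MRPL24 from 153 to 112 CPM. None of these 4 had overlapping groups, and their log2 fold changes were −0.45, −0.51, −0.40 and −0.49. The fall of MRPS34 was uneven, with paired differences averaging −0.69 in replicates 1, 2, 3 and 6 and −0.145 in 4 and 5. MRPS16 overlaps a coding row on its own strand, and the other 3 overlap no row. MRPL14 did not fall: its UT libraries were between 75.4 and 131 CPM, lowest in replicates 4 and 5, and its PGCC libraries between 113 and 140 CPM, for a log2 fold change of 0.14 (95% interval −0.11 to 0.39). Its paired differences averaged 0.017 in replicates 1, 2, 3 and 6 and 0.41 in 4 and 5.

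**Figure D3:**
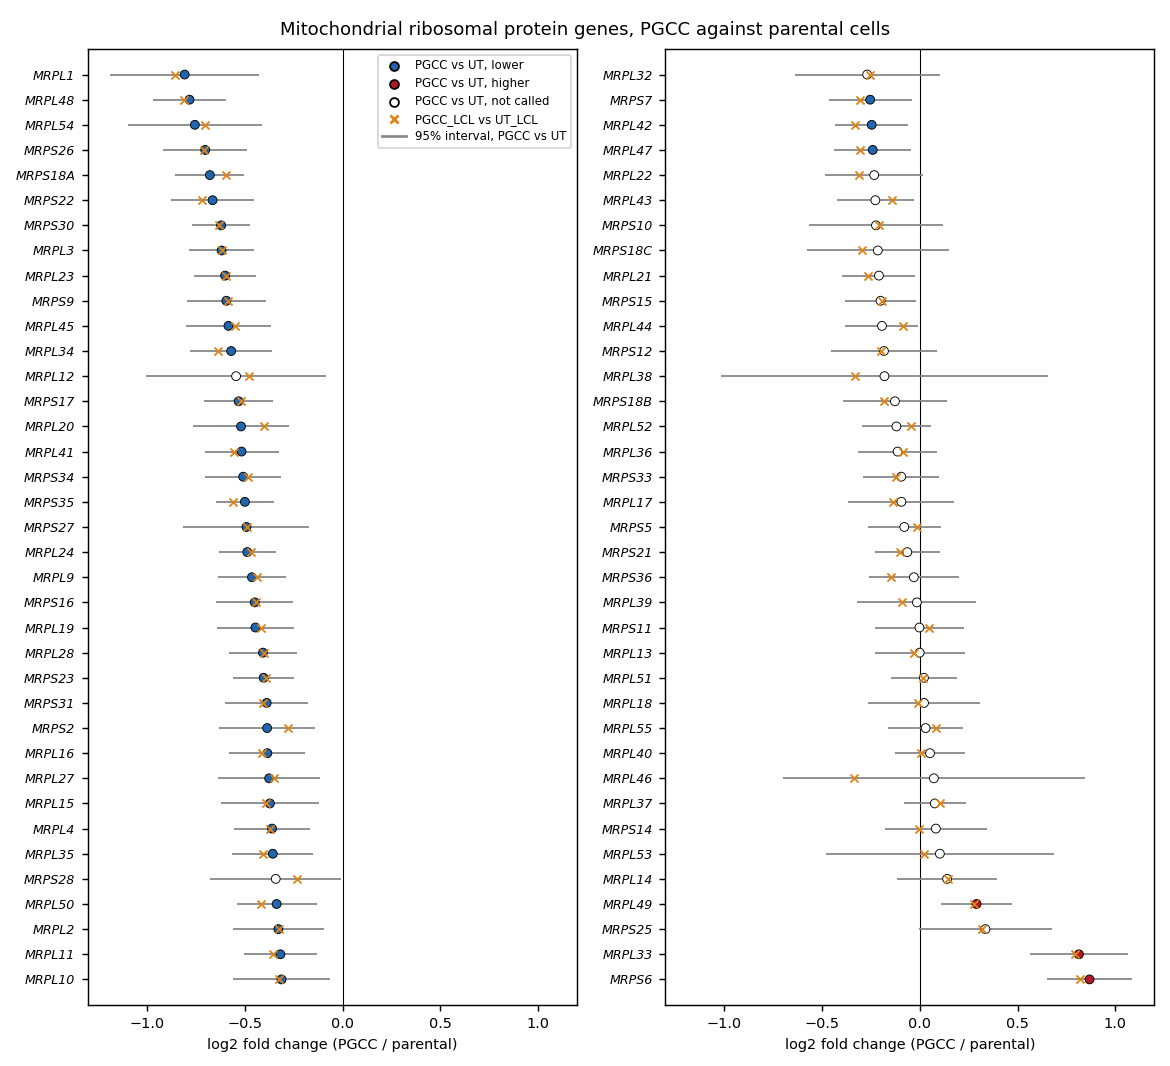
Log2 fold change of each of the 74 tested members, PGCC over UT (circles with 95% intervals, filled where adjusted p was under 0.05 in edgeR), ordered from the lowest to the highest, with the values of PGCC_LCL over UT_LCL as crosses. The 38 members called lower fill most of the left panel, MRPS6, MRPL33 and MRPL49 stand at the right end, and the crosses follow the circles.

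Against the rest, 3 members rose in PGCC. MRPS6, the homolog of bacterial S6 in the small subunit (chromosome 21, 35445524 to 35515334, ENSG00000243927), was at 22.2 to 29.7 CPM in UT, median 23.7, and at 36.4 to 49.8 CPM in PGCC, median 46.6. The groups did not overlap, and the log2 fold change was 0.87 ± 0.10 (SE; adjusted p = 1.1e-05, edgeR). SLC5A3, an inositol transporter gene that shares bases with MRPS6 on the same strand, was called higher too, at 0.67. Which of the 2 genes the reads of shared bases came from cannot be told apart.

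MRPL33, the homolog of bacterial L33 in the large subunit (chromosome 2, 27994584 to 28210954, ENSG00000243147), lay between 33.5 and 48.6 CPM in UT, median 36.6, and between 61.8 and 86.0 CPM in PGCC, median 64.2. Its groups were separate, with a log2 fold change of 0.81 ± 0.12 (SE; adjusted p = 6.8e-05, edgeR). BRE, which covers part of the same bases on the same strand, stood at −0.23 and was not called, and RBKS on the opposite strand was higher, at 1.26. Whether the reads were counted by strand is not given in the sources used here.

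MRPL49, a large subunit protein specific to mitochondria (chromosome 11, 64889655 to 64894843, ENSG00000149792), rose less and with overlap, from 54.8 to 72.4 CPM, median 64.3, to 69.8 to 82.5 CPM, median 76.5. Its log2 fold change was 0.29 ± 0.085 (SE; adjusted p = 0.012, edgeR), and without replicate 1 the adjusted p was 0.061. FAU, which shares bases with it on the opposite strand and encodes a cytosolic ribosomal protein, fell by 0.51. By overlap with other rows, of the 31 members that overlap no other row, 18 were lower and 0 higher. All 3 rises, and the rest of the 38 falls, were among the 43 tested members that overlap one. Of all members tested 51.4% were lower and 4.05% higher, and of all genes tested 24.3% and 23.1%. No test compared the counts. MRPS25, a small subunit protein, was the only further member called higher with the replicate block, at 0.35 (adjusted p = 0.0087, edgeR; 0.096 without the block), and is named because the block called it.

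Members whose transcription starts face the start of another gene were common: 27 of 77, or 35.1%, had a protein_coding gene on the opposite strand starting within 1000 bases, beside 13.1% of all protein_coding rows. For 24 of these members both genes were tested, MRPS11 and MRPL46 being each other's partner, so that this pair enters more than once. Of the 24 members 10 were lower in PGCC, beside 51.4% of all members tested. Of the 24 partners 4 were lower and 6 higher, beside 24.3% and 23.1% of all genes tested. A member and its partner were both lower in 1 case, MRPL41 with PNPLA7. MRPL27, at −0.38, starts 6 bases from EME1, a gene for a subunit of a DNA repair nuclease, which stood at 1.92. MRPL51 was at 0.021 and its partner NCAPD2, a condensin subunit gene, at 1.77. MRPS11 and MRPL46, which start 34 bases apart, stood at −0.00196 and 0.072. These pairs were chosen after their values were seen.

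PGCC_LCL against UT_LCL repeats the comparison of the populations in the 12 other libraries, all with LCL521, which carry the same replicate numbers. Of the 74 members, 37 were lower and 3 higher, beside 23.9% and 25% of all 13818 genes tested, 48.9% in all, with a median of −0.32 against −0.0064. With the replicate block 41 were lower and 4 higher, beside 26.8% and 29.5%, 56.3% in all. MRPS6, MRPL33 and MRPL49 were again the 3 that rose, at 0.82, 0.79 and 0.28. Of the falls, 35 were called in both, 92.1% of the 38 without LCL521 and 94.6% of the 37 with it. MRPL27, MRPL47 and MRPS7 were called lower without LCL521 alone, and MRPL21 and MRPL22 with it alone. The first 3 had adjusted p between 0.052 and 0.065 with LCL521 (edgeR), and with the replicate block all 3 were called there too (0.033 to 0.049), so a difference between the comparisons is not shown for them. MRPL21 was called without LCL521 as well with the block (adjusted p = 0.032, edgeR). MRPL1 was the lowest member again, at −0.86, and its groups now did not overlap, at 21.0 to 39.9 CPM against 11.9 to 19.3 CPM. In this comparison 23 members (31.1%) were wholly lower and 2 wholly higher, beside 13.7% and 14.4% of all genes tested. The log2 fold changes of the 74 members had a Spearman correlation of 0.96 between the comparisons; the points share replicate numbers, whose libraries deviated together, and no member was called in opposite directions.

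The fall over all members was uneven between replicates. Without LCL521 the median difference of the members within replicate numbers was −0.35, −0.36, −0.42 and −0.34 in replicates 1, 2, 3 and 6, and −0.025 and −0.23 in replicates 4 and 5. In fits to replicates 4 and 5 alone the median was −0.10 for the members and −0.00147 for all genes, and without them −0.36 and −0.0072. With LCL521 the 6 medians were −0.35, −0.39, −0.56, −0.17, −0.27 and −0.12 in replicates 1 to 6, so the smallest fall was in replicate 6, and the fit to replicates 4 and 5 alone gave −0.25. The difference between these sets of replicates was not tested.

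LCL521 itself was then compared within each population. In parental cells none of the 74 members was called, with or without the replicate block, where 0% of all genes tested were called without it and 0.866% with it (0.52% higher, 0.346% lower). In edgeR 0 members had an unadjusted p under 0.05 without the block and 8 with it, and DESeq2 and limma-voom called 0. The share of all genes at that unadjusted threshold is not given here, so the 8 have no background beside them. The median of the members was −0.036, beside −0.000206 for all genes, and their log2 fold changes ran from −0.15 to 0.32. Ordered from low to high, the members were below 0 up to rank 59 of 74. The share of all genes below 0 in this comparison is not given here. MRPL24, MRPS9 and MRPS18A had the smallest p, at −0.12, −0.15 and −0.12, each with an adjusted p of 1.0 in edgeR. MRPS9 lay between 29.0 and 38.7 CPM in UT and between 25.7 and 33.4 CPM in UT_LCL, and was lower in 6 of 6 replicate numbers (adjusted p = 0.23 with the block). With the block MRPL55, at −0.14, was among the 3 smallest as well.

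In PGCC no member was called either, while 0.00707% of all genes were without the block and 1.65% with it (1.08% higher, 0.572% lower). In this comparison 68 of 74 members were below 0, beside 51.3% of all genes tested, and the median was −0.069 beside −0.00298. Most members were below 0 in parental cells too. The members share their libraries, so their signs are not independent. The values are small. In PGCC the summed level within replicate numbers changed to 0.953 ± 0.0442 (SD, n = 6) of that without LCL521. In parental cells it was 0.967 ± 0.0539. For PGCC, replicates 4 and 5 averaged 0.906, and the other replicates 0.976. The median paired difference of the members averaged −0.149 and −0.0359 in these sets, and was below 0 in 5 of 6 replicate numbers. Whether the sets differed was not tested. In edgeR 1 member had an unadjusted p under 0.05, MRPL24, and 20 had one with the block, and DESeq2 and limma-voom called 0. The share of all genes at that unadjusted threshold is not given here either, and the 1.65% counts adjusted calls. MRPL24 lay between 98.9 and 115 CPM in PGCC and between 96.3 and 109 CPM in PGCC_LCL, at −0.13 (95% interval −0.24 to −0.02). MRPL17 stood at −0.13 and MRPL4 at −0.11, and MRPL18 had the smallest adjusted p with the block, 0.087 at −0.14 in edgeR; MRPL24, MRPL17, MRPL4 and MRPL18 were each lower in 6 of 6 replicate numbers.

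**Figure D4:**
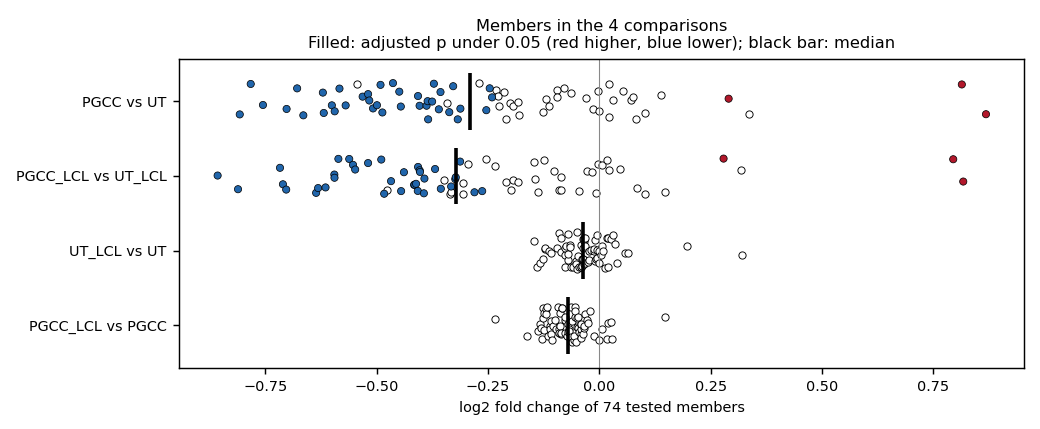
Log2 fold change of the 74 tested members (points, spread vertically for sight) in the 4 comparisons, with the median as a black bar and filled points where adjusted p was under 0.05 in edgeR. The comparisons of PGCC with parental cells reach from −0.86 to 0.87 with medians of −0.29 and −0.32, and those of LCL521 stay near 0 with no filled point.

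Whether the response to LCL521 differed between the populations was tested as an interaction over all 24 libraries. No member was called, and none of the 14555 genes tested was, with or without the block. No member had an unadjusted p under 0.05 in edgeR, and DESeq2 and limma-voom called 0. The median was −0.031 for the members and 0.0039 for all genes. The 3 smallest p belonged to MRPL46 at −0.42 (95% interval −1.40 to 0.56), MRPS36 at −0.14 and MRPS35 at −0.082, and with the block MRPL44 at 0.094 was among them. MRPL46 is counted at 0.651 to 2.11 CPM in PGCC, and its interval is wide.

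Other genes of mitochondrial translation were counted in the same way, beside the 24.3% of all genes called lower and 23.1% called higher. Of 7 mitoribosomal proteins under other symbols, ICT1, a peptidyl-tRNA hydrolase built into the large subunit, fell by 0.60 and DAP3, a GTP-binding protein of the small subunit, by 0.23. MRP63, GADD45GIP1, CHCHD1, AURKAIP1 and PTCD3 were not called, at −0.018, −0.12, 0.051, −0.20 and −0.013. Of 28 genes for assembly of the mitoribosome and modification of its rRNA, 14 were lower and 0 higher, led by DDX28, an RNA helicase of large subunit assembly, at −0.61 and NGRN at −0.58. The median of the 28 was −0.31.

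Of 15 mitochondrial translation factors 8 were lower and 1 higher. MTIF3, an initiation factor, fell by 0.77 and MRRF, the ribosome recycling factor, by 0.74, while MTRF1, a release factor, rose by 0.68 on the log2 scale. Of 12 transcription factors and coactivators of nuclear genes for mitochondria, 8 were lower and 0 higher with a median of −0.39. PPARGC1B, a coactivator, fell by 1.25 and MYC by 0.89. Of the factors whose motifs were searched in the promoters, GABPA fell by 0.27, while NRF1 at −0.22 and YY1 at −0.071 were not called.

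The 13 mRNAs that the mitoribosome translates, encoded in mitochondrial DNA, stood on the other side. All 13 were above 0 in PGCC, from 0.0052 to 0.79 with a median of 0.40, but none was called without the block. With the block 7 were called higher, beside 27.9% of all genes tested. Without it 2 had an unadjusted p under 0.05 in edgeR, for which no share of all genes is given here. Their summed level ranged from 12111 to 44742 CPM in UT and from 19275 to 51061 CPM in PGCC, with wide overlap. The ratio of this level, PGCC over UT within replicate numbers, ran from 0.802 to 2.53 and was below 1 in 1 replicate. Replicates 4 and 5 averaged a ratio of 1.09, and the other replicates 1.69. Whether these sets of replicates differed was not tested. Cytosolic ribosomal protein genes had 71 of 76 lower and 0 higher, with a median of −0.66, so the members fell less than these by the medians, a difference that was not tested.

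**Figure D5:**
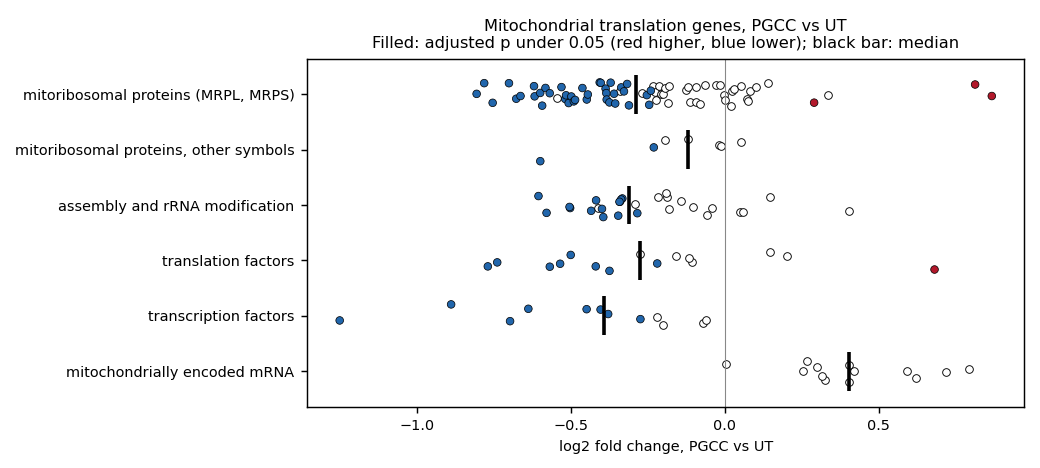
Log2 fold change of PGCC over UT (horizontal axis) for each tested gene of 6 lists of mitochondrial translation, with the median as a black bar and filled points where adjusted p was under 0.05 in edgeR (blue lower, red higher). Medians are −0.29 for the members, −0.12, −0.31, −0.28 and −0.39 for the lists of nuclear genes below them, and 0.40 for the 13 mitochondrially encoded mRNAs.

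Other markers moved with the populations. The 8 markers of proliferating cells, MKI67 among them, were all called higher in PGCC, and their summed level was 150 to 537 CPM in UT and 1140 to 1485 CPM in PGCC. In UT it was highest in replicates 4 and 5, at 408 and 537 CPM, and in the other 4 between 150 and 337 CPM. Of the 4 epithelial markers KRT8 was higher, KRT18 lower, CDH1 not called and EPCAM not tested, with summed levels of 244 to 361 CPM in UT and 296 to 420 CPM in PGCC. HOXB13 fell by 0.80, and it was the only prostate marker named here that passed the filter on low counts. The part of these differences in the fall of the members was not tested.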

How the data were processed

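Total RNA of 24 PPC1 libraries, 6 for each of 4 conditions, was sequenced. The deposited values are counts of reads per gene, whole numbers that the authors did not normalize. According to the study's methods and the submitters' processing notes, reads were aligned to hg19 with STAR and counted with HTSeq. The annotation release and the strand setting are not given in the sources used here, so counts of overlapping genes are uncertain. No column of per-sample values was left out.

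Low counts were removed with filterByExpr (minimum count 10, minimum total 15), library sizes were adjusted with TMM factors, and the 12 libraries of a comparison were fitted with edgeR 4.0.16 (R 4.3.3), quasi-likelihood, adjusted by Benjamini-Hochberg over all genes tested, with a threshold of 0.05. The interaction used 24 libraries. Standard errors are the log2 fold change divided by the square root of F. Alternatives were DESeq2 1.42.0, limma-voom (limma 3.58.1), other scaling factors, library totals, other filters, all libraries in 1 fit, the replicate block, a gene length offset, each replicate left out, and leaving out replicates 4 and 5. The procedure was run on simulated counts with known changes. It was required to recover only the largest of them, and without the block only where no replicate effect was simulated. Its recovery of changes of the size seen here is not given.

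Titles give each library a number from 1 to 6, and the study's methods speak of 6 sets of RNA isolations, without saying that a number marks a set. Deviations from the condition mean were correlated between libraries that carry 1 number: all 6 correlations were over 0.1 in each comparison, with a lowest value of 0.237 for PGCC and UT, 0.171 for PGCC_LCL and UT_LCL, 0.458 for UT_LCL and UT and 0.385 for PGCC_LCL and PGCC. The study states no block, so the main fit has none. The supplement's text on differential expression speaks of 2 biological replicates per condition, against 6 libraries here. Whether the 6 came from separate cultures is not stated, and p-values measure the spread between these libraries. The members and lists were chosen with earlier results of these data known.

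Named members were the 10 largest rises and falls called in PGCC against UT, the 5 highest and 3 lowest levels per kb, members removed by the filter, the MRPS18 paralogs, the extremes at each structural site, and the smallest p in the LCL521 comparisons. Of other lists the 2 largest rises and falls that were called are named, and all genes of lists of up to 8. The mitochondrial rRNA genes were not analysed here. Promoter sequences are from RefSeq on GRCh38.p14 and were not joined to hg19 coordinates.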

Additional observations from a re-analysis of the deposited data

Results flagged for a closer look

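In 7 of 140 groups of 6 libraries of a named member, the highest or lowest library lay farther from the others than Dixon's limit at the 95% level allows. Chance gives about 1 group in 20, so 7 of 140 is the share chance gives. Replicate 2 was the highest PGCC library for MRPL33 at 86.0 CPM (the others 61.8 to 68.6), for MRPL18 at 102 CPM (82.1 to 86.4) and for MRPL12 at 3.93 CPM (2.72 to 3.17), and the highest UT library for MRPS14 at 17.4 CPM (11.0 to 12.8). Replicate 6 was the lowest UT library for MRPS30 at 145 CPM (170 to 184), the lowest UT_LCL library for MRPL24 at 118 CPM (143 to 153) and the lowest PGCC library for MRPL24 at 98.9 CPM (110 to 115).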

How the results depend on the processing

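Members called in PGCC against UT numbered 33 to 52 of 74 and in PGCC_LCL against UT_LCL 33 to 45 over the alternatives run on all members, and 0 in every alternative of the LCL521 comparisons and the interaction. Leaving out 1 replicate gave 34 to 45 and 33 to 42 calls, medians of −0.32 to −0.26 and −0.37 to −0.27, and in the LCL521 comparisons 0 calls with medians of −0.065 to −0.011 in parental cells, −0.083 to −0.048 in PGCC and −0.076 to −0.0057 for the interaction. Among the 31 members that overlap no other row the call count was 18, from fewer genes. Replicates 4 and 5 alone moved the median of PGCC against UT to −0.10, and library totals moved the summed ratio to 0.878; the cause was not tested. The mean paired difference of replicates 4 and 5 was above 0 for MRPL27 (0.050) and MRPS7 (0.035), both called lower over all libraries. A fit to replicates 4 and 5 alone turned the direction of these named members, which were not called: MRPS18C to 0.049, MRPL22 to 0.093, MRPL12 to 0.055 and MRPS12 to 0.28 in PGCC against UT, and MRPL46 to 0.18 and MRPS36 to 0.11 in the interaction. MRPL46, not called, ran from −0.021 to 0.16 in PGCC against UT when 1 replicate was left out, and was below 0 without replicate 5 (−0.017) and without replicate 6. MRPL49 lost its call without a filter (adjusted p = 0.053, edgeR) and without replicate 1, MRPL2 by library totals and without replicate 2 or 6, and in PGCC_LCL against UT_LCL MRPL49 lost it without a filter (0.088). The replicate block gave 48 and 45 calls, lost none of the calls made without it and added 7 and 5, among them MRPL12 lower and MRPS25 higher in both, and changed no call in the LCL521 comparisons or the interaction. Depth limits the members under about 2 CPM, such as MRPL46 and MRPL38.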
